A study of Mus musculus with 7 samples.

Results

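The 10 genes described here mark the earliest born neurons of the cerebral cortex. Reln, Calb2, Ebf3, Trp73, Ndnf and Lhx5 were listed as genes of Cajal-Retzius cells, and Nxph4, Nr4a2, Lpar1 and Tmem163 as genes of the subplate. They were found by matching the Entrez identifier of each row of the count table to these mouse symbols, and all 10 were among the 26286 genes of the table. RNA-seq had been run on polyA RNA of cortical neurons from brains of male C57BL/6 embryos at E16.5, 3 wild type and 4 of the KAT7 mutant genotype. The product of Kat7 acetylates histones. Neither the mutant allele nor any Cre driver, nor how the neurons were obtained, is given in the sources used here. The design names separate mice, so each library was taken as 1 animal.

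Cajal-Retzius cells lie in the marginal zone at the surface of the developing cortex, arise largely from the cortical hem, the septum and the border of pallium and subpallium, and secrete reelin, which guides the layering of the neurons that migrate past them. Reelin binds the lipoprotein receptors encoded by Vldlr and Lrp8 and acts through the adaptor encoded by Dab1. Subplate neurons lie below the cortical plate and form early, partly transient, circuits with ingrowing thalamic axons. None of the 10 genes is exclusive to these cells. Reln, Calb2 and Ndnf are also made by interneurons, Nr4a2 by claustral and deep layer neurons, and Lpar1 by progenitors, oligodendrocytes and meningeal cells. In RNA of a whole sample, fewer cells of a type and less RNA per cell cannot be told apart.

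Of the 10 genes, Reln, Ebf3, Nxph4 and Nr4a2 rose in the KAT7 mutant, Calb2 fell, and Trp73, Ndnf, Lhx5, Lpar1 and Tmem163 did not pass the test. Calls are those of the quasi-likelihood test of edgeR below 0.05, with Benjamini-Hochberg adjustment over the 13681 genes tested. Over all tested genes the test called 28.9%, with 13.1% higher and 15.8% lower, against 4 higher and 1 lower of the 10. All 10 passed the filter on low counts. The count over 10 genes is given as a description. The median log2 fold change was 0.18 for the 10 genes, 0.05 for the 6 Cajal-Retzius genes and 0.26 for the 4 subplate genes, against 0.003 for all tested genes. The CPM of the genotypes did not overlap for 5 of the 10 genes, 3 of them higher and 2 lower in the mutant, against 35.3% of all tested genes in either direction.

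**Figure D1:**
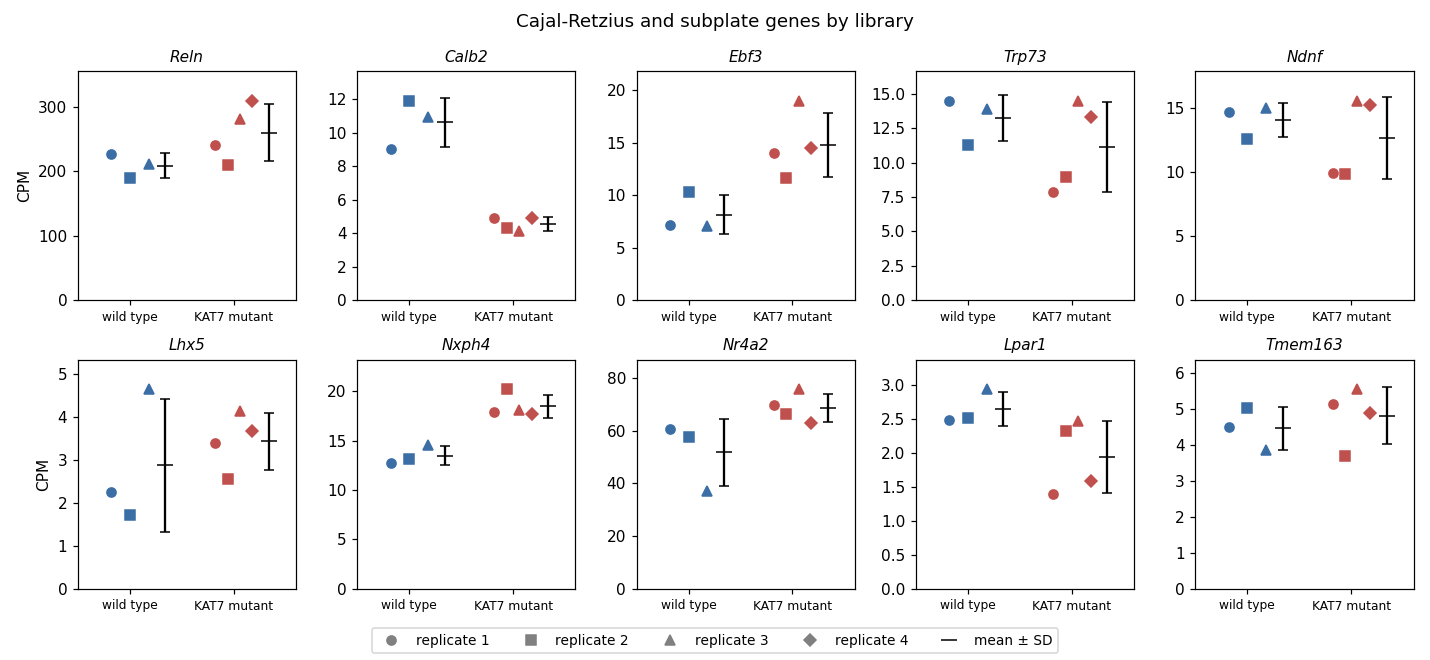
Counts scaled to a common library total (CPM) of the 10 genes in each library, wild type in blue and KAT7 mutant in red, with a marker shape for each replicate number and the mean ± SD (n = 3 and 4) beside the points; each vertical axis starts at 0. The mutant points of Ebf3, Nxph4 and Nr4a2 lie above and those of Calb2 and Lpar1 below every wild type point, while the Reln points overlap.

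Upstream sequence is shown for members that rose, as context; no binding or acetylation was measured here. The RefSeq promoter table, of assembly GRCm38.p6, holds entries for 6 of the 10 genes, namely Reln, Ebf3, Trp73, Nr4a2, Lpar1 and Tmem163. The counts rest on mm9, so no value of the table was placed on these coordinates. The 250 bases before the start site are shown for the 3 genes that rose and have an entry. These are Reln at chr5:22344706-22344955, Ebf3 at chr7:137314446-137314695 and Nr4a2 at chr2:57124004-57124253, all on the minus strand and written 5′ to 3′ along the gene. Capitals mark matches to the GC box GGGCGG on either strand (CCGCCC on the other).
Reln: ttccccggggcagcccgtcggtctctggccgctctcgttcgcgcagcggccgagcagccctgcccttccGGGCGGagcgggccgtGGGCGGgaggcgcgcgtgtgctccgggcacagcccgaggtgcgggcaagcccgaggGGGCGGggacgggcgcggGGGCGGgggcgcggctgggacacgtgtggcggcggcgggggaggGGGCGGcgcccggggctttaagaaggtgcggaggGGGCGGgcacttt
Ebf3: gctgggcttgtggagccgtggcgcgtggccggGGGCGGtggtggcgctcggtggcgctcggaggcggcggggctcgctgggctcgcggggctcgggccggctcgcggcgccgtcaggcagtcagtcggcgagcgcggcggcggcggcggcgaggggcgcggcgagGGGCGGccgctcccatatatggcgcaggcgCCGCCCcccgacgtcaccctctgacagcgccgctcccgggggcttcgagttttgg
Nr4a2: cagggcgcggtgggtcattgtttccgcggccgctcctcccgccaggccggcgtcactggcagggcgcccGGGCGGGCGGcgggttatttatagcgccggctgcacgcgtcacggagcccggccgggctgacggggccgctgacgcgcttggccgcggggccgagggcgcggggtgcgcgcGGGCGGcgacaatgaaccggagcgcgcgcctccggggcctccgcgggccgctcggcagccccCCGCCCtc

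All 3 windows were rich in CpG dinucleotides, with 37 in Reln, 43 in Ebf3 and 44 in Nr4a2 against a median of 6 over the 32544 windows of the same length in the table. The share of windows with fewer was 97.8%, 99.3% and 99.5%. All 3 were 80% GC, against a median of 52.4% over the windows. GC boxes, counted with overlap, numbered 6 in Reln, 3 in Ebf3 and 4 in Nr4a2, and 33% of all windows held at least 1. That share is over windows of any GC content. The cyclic AMP response half-site TGACG, searched on both strands, had 4 matches in Nr4a2, 2 in Ebf3 and 0 in Reln, and 17.8% of all windows held it. Both motifs were picked after the sequences were seen, and a match is a description of letters. Among genes that were not called, Tmem163 had 8 CpG dinucleotides, and Lpar1 had 11, 28 and 3 in its 3 windows. Trp73, which has an upstream and an internal start, had 31 at the first and 6 at the second. Counts per gene do not separate transcripts from those starts.

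The check of the genotype labels came first. Kat7 had counts of 869, 848 and 854 in wild type libraries 1 to 3 and 3, 4, 3 and 10 in KAT7 mutant libraries 1 to 4. Libraries held 8272487 to 8813060 counts in all. Pyramidal neuron markers summed to 8050 to 8740 CPM in wild type and 8170 to 8420 CPM in mutant libraries, with Map2, a dendritic microtubule protein gene, at 1930 ± 79.3 CPM (SD, n = 3) and 1820 ± 34.5 CPM (SD, n = 4). Endothelial markers summed to 4.99 to 6.75 and 5.79 to 8.07 CPM, with 1 of 7 at 0 counts, and meningeal fibroblast markers to 21.1 to 25.4 and 19 to 22.2 CPM. The markers of the labelled cell type were thus abundant, and those of vessels and meninges were low in both genotypes. Of 13 pyramidal neuron markers 5 rose and 3 fell. Of 8 microglia markers 7 were tested, 4 rose and 0 fell. The rises among microglia markers were 2 in DESeq2 and without wild type replicate 1, mutant replicate 3 or mutant replicate 4. Of 9 thalamic and hypothalamic markers 3 were tested, and 0 rose (1 at an unadjusted edgeR p under 0.05, 0 in DESeq2) and 1, Slc17a6, fell by 0.27. That call was lost without wild type replicate 1 or 2 or mutant replicate 2 and under the replicate block (edgeR adjusted p = 0.0654, in a range of 0.00276 to 0.101), and 1 marker rose without wild type replicate 3 or mutant replicate 1. In wild type Slc17a6 had 54.8 CPM, Lhx9 11.2 and Tcf7l2 1.57, whereas Gbx2, Ntng1, Otp and Sim1 had 0 to 0.155. The Slc17a6 value is thus not read as that of thalamic cells, and which cells made it was not tested. Of 7 endothelial markers 3 were tested and 0 were called (1 higher at an unadjusted edgeR p under 0.05, 0 in DESeq2), with 1 rise without wild type replicate 2 or mutant replicate 4.

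Per gene length, the 10 genes spanned over an order of magnitude. The values that follow are levels in reads per kilobase of deposited gene length, scaled as CPM (RPKM), as wild type means with SD over 3 libraries. Reln came first with 17.9 ± 1.65, then Nr4a2 with 15.5 ± 3.79, Nxph4 with 8.05 ± 0.589 and Calb2 with 7.40 ± 1.02. Ndnf followed with 3.01 ± 0.285, Trp73 with 2.49 ± 0.316, Tmem163 with 1.77 ± 0.237, Ebf3 with 1.62 ± 0.371, Lhx5 with 1.05 ± 0.568 and Lpar1 with 0.753 ± 0.0715. Neighbours in that order lay within their summed SD of each other, except for the steps from Nr4a2 to Nxph4, from Calb2 to Ndnf and from Trp73 to Tmem163. In the mutant (SD over 4 libraries) Calb2 stood at 3.18 ± 0.281, near Ebf3 at 2.95 ± 0.616 and Ndnf at 2.70 ± 0.684.

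**Figure D2:**
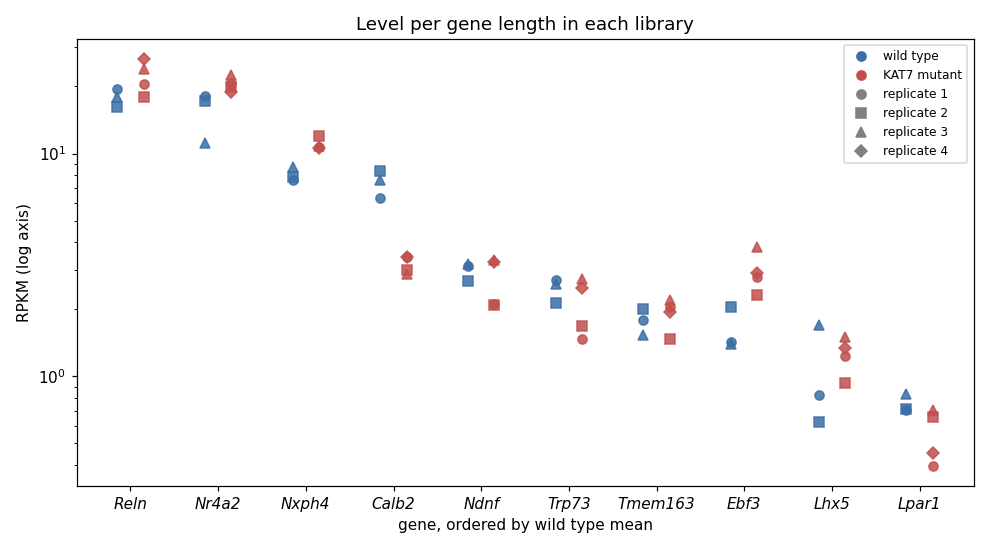
RPKM of each gene in each library on a log axis, with genes ordered by their wild type mean, wild type in blue, KAT7 mutant in red and a marker shape per replicate number. Reln and Nr4a2 are the highest in both genotypes, and Calb2 moves from the level of Nxph4 in wild type, 7.40 against 8.05, to that of Ebf3 in the mutant, 3.18 against 2.95.

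Reln encodes the secreted glycoprotein reelin itself. Its counts were 1914, 1651 and 1866 in wild type libraries 1 to 3 and 2062, 1815, 2376 and 2532 in mutant libraries 1 to 4. Mutant replicates 3 and 4 were the highest of all libraries, and mutant replicate 2 fell among the wild type values. The mean rose from 209 ± 19.3 (SD, n = 3) to 260 ± 43.6 CPM (SD, n = 4), 1.25-fold, a log2 fold change of 0.32 (SE 0.09, edgeR adjusted p = 0.0137). The call was lost in DESeq2 (adjusted p = 0.14) and in a robust edgeR fit (0.185). It was also lost in edgeR without wild type replicate 2 (0.24, adjusted p = 0.107) and without mutant replicate 4 (0.22, 0.0578), and the adjusted p ranged from 1.99e-06 to 0.185 over its alternatives. Interneuron markers, a further source of Reln, summed to 406 to 590 CPM in wild type and 480 to 657 CPM in mutant libraries, and 7 of 17 rose and 2 fell. The rises numbered 4 without wild type replicate 2 or 3, 10 without mutant replicate 2, 8 without mutant replicate 3 or 4 and 6 in DESeq2. The falls numbered 1 without wild type replicate 1 or mutant replicate 2, 3 or 4 and in DESeq2. None of the 17 was at 0 in all libraries, and their part in the Reln result was not tested.

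Calb2 encodes calretinin, a calcium-binding protein of Cajal-Retzius cells and of a class of interneurons. Its level was 9.02, 11.9 and 10.9 CPM in wild type libraries 1 to 3 and 4.91, 4.29, 4.13 and 4.89 CPM in mutant libraries 1 to 4. Every mutant library was below every wild type library, and the mutant values were close together. Calb2 fell by 1.22 on the log2 scale (SE 0.15), to 0.43 of the wild type level, with an edgeR adjusted p of 4.4e-06. The value was -1.32 to -1.13 with any 1 library left out, and the call held in each of these and in DESeq2. The number of calretinin reads was modest, 76 to 104 per wild type library and 35 to 42 per mutant library. Prox1, a homeobox gene of interneurons from the caudal ganglionic eminence and of the hippocampus, fell as well, by 1.11 on the log2 scale, while Sp9, a gene of ventral progenitors and young interneurons, rose by 1.16. Of the other interneuron markers, Htr3a (-0.04 ± 0.34, SE), Adarb2 (-0.14 ± 0.19), Nr2f2 (0.45 ± 0.22) and Sp8 (0.96 ± 0.39) were not called in the main fit. They were chosen after their values were seen, and the part of interneurons in the Calb2 result was not tested.

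Because Calb2 and Reln are often read as markers of the same cells, their ratio was formed within each library. Per length, the Calb2 to Reln ratio was 0.325, 0.515 and 0.421 in wild type libraries 1 to 3 and 0.167, 0.167, 0.12 and 0.129 in mutant libraries 1 to 4. The genotypes did not overlap. This ratio was picked after both values were seen and is given without a test.

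Ebf3 encodes a helix-loop-helix transcription factor that Cajal-Retzius cells express. It had 7.12, 10.3 and 7.01 CPM in wild type libraries 1 to 3 and 14, 11.6, 19 and 14.5 CPM in mutant libraries 1 to 4. The lowest mutant library was above the highest wild type library. Ebf3 rose 1.81-fold, a log2 fold change of 0.86 (SE 0.17, edgeR adjusted p = 0.000627). The value lay between 0.71 and 1.06 with any 1 library left out, and the call held in each of these.

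Trp73, Ndnf and Lhx5 were not called. Trp73 encodes p73, a p53 relative needed for the survival of Cajal-Retzius cells, and had 14.5, 11.3 and 13.9 CPM in wild type libraries 1 to 3 and 7.83, 8.93, 14.5 and 13.3 CPM in mutant libraries 1 to 4. Ndnf, which encodes a secreted neurotrophic factor, had 14.7, 12.6 and 15 CPM and then 9.93, 9.85, 15.6 and 15.3 CPM in the same order. For both genes mutant replicates 1 and 2 were the lowest of the 7 libraries, and mutant replicates 3 and 4 lay at or near the wild type values. The log2 fold changes were -0.25 ± 0.17 (SE) for Trp73, with an edgeR adjusted p of 0.303, and -0.16 ± 0.16 for Ndnf, with an edgeR adjusted p of 0.483. Lhx5, a LIM homeobox gene of the hem and of Cajal-Retzius cells, had 19, 15 and 41 counts in wild type and 29, 22, 35 and 30 counts in mutant libraries. Wild type replicate 3 alone held the highest Lhx5 value. Its log2 fold change of 0.25 ± 0.28 (SE) moved between -0.02, without wild type replicate 2, and 0.79, without wild type replicate 3, so no direction can be read from it.

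**Figure D3:**
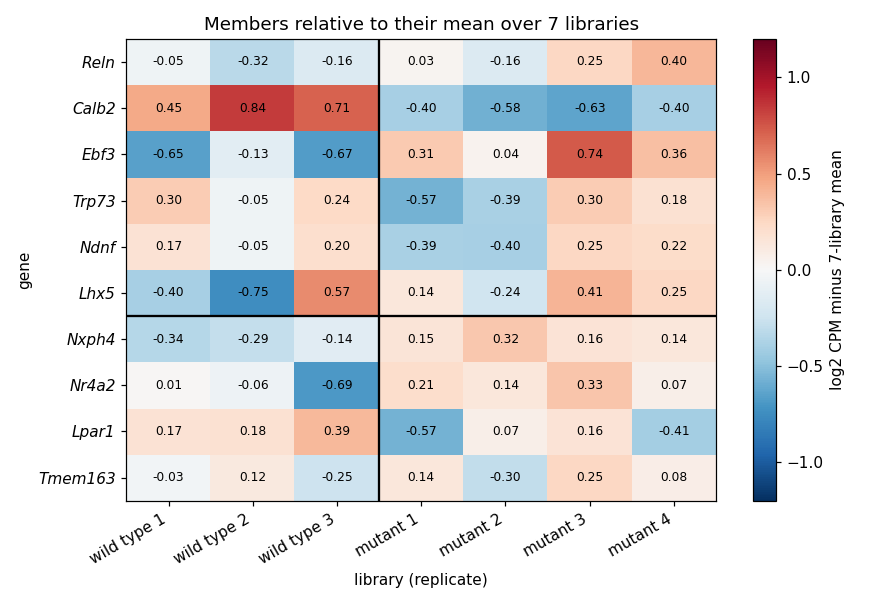
Log2 CPM of each gene minus its mean over the 7 libraries, with genes as rows (Cajal-Retzius above the line, subplate below) and libraries as columns (wild type left of the line, KAT7 mutant right); red is above and blue below the mean. Calb2 runs from 0.45 to 0.84 in wild type and from -0.63 to -0.40 in the mutant, and Reln, Ebf3, Trp73, Ndnf and Lhx5 are higher in mutant replicates 3 and 4 than in mutant replicates 1 and 2.

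The mutant libraries thus differed among themselves for Cajal-Retzius genes. Reln, Ebf3, Trp73, Ndnf and Lhx5, 5 of the 6, each had their highest mutant values in replicates 3 and 4, for Ebf3 by a narrow margin (14.5 against 14 CPM), and the sum over the 6 Cajal-Retzius genes, most of it Reln, was 281, 248, 338 and 361 CPM in mutant libraries 1 to 4 against 275, 237 and 263 CPM in wild type libraries 1 to 3. Calb2 did not share this order, being 4.91, 4.29, 4.13 and 4.89 CPM. Nr2f2, an orphan nuclear receptor of caudal cortex, caudal interneurons and hem, had 53, 53.8, 138 and 111 CPM in the same mutant libraries and 63.9 to 66.7 CPM in wild type. It was not called (0.45 ± 0.22, SE), but it rose without mutant replicate 1 (0.63) or 2 (0.62), and without the count filter. The order of libraries and Nr2f2 were picked after the values were seen, and what makes these libraries differ was not tested.

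Among subplate genes, Nxph4 encodes a neurexophilin, a secreted ligand of alpha-neurexins. It had 12.7, 13.2 and 14.6 CPM in wild type libraries 1 to 3 and 17.9, 20.2, 18.1 and 17.7 CPM in mutant libraries 1 to 4. All mutant libraries were above all wild type libraries, with replicate 2 apart from the other 3. Nxph4 rose 1.37-fold, a log2 fold change of 0.45 (SE 0.11, edgeR adjusted p = 0.00308), and the call held with any 1 library left out and in DESeq2.

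Nr4a2 encodes Nurr1, an orphan nuclear receptor of subplate, claustrum and deep layer neurons. It had 60.7, 57.7 and 37.3 CPM in wild type libraries 1 to 3 and 69.8, 66.2, 75.7 and 63.1 CPM in mutant libraries 1 to 4. The genotypes did not overlap, but wild type replicate 3 lay far below the other 2 wild type libraries. Nr4a2 rose 1.33-fold, a log2 fold change of 0.41 (SE 0.11, edgeR adjusted p = 0.00922). Without wild type replicate 3 the value was 0.22 and the call was lost (adjusted p = 0.0565), as it was in DESeq2 (0.12) and in a robust edgeR fit (0.117). Over all its alternatives the adjusted p ran from 2.27e-06 to 0.12. Foxp2 and Tbr1, transcription factor genes of deep layer neurons, rose by 1.00 and 0.51 on the log2 scale. Other deep layer genes were chosen after their values were seen. Tle4 rose by 0.38 (SE 0.08, edgeR adjusted p = 0.000965). Bcl11b rose by 0.19 (SE 0.06, edgeR adjusted p = 0.0147), a call lost without wild type replicate 1 or 2 (range 0.00148 to 0.109). Fezf2 fell by 0.28 (edgeR adjusted p = 0.0118, in a range of 2.43e-05 to 0.132). The Fezf2 call was lost without wild type replicate 3, in the robust fit and under the replicate block. Sox5 stood at 0.01 ± 0.09 (SE). The part of these neurons in the Nr4a2 result was not tested.

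Lpar1 and Tmem163 were scarce and were not called. Lpar1 encodes a receptor for lysophosphatidic acid and had 21, 22 and 26 counts in wild type and 12, 20, 21 and 13 counts in mutant libraries. On the CPM scale every mutant library was below every wild type library, 1.40 to 2.48 against 2.49 to 2.94, yet the gap between the nearest libraries was small and the log2 fold change of -0.44 ± 0.26 (SE) had an edgeR adjusted p of 0.22. Tmem163, which encodes a zinc transporter of vesicles, had 3.85 to 5.03 CPM in wild type and 3.71 to 5.55 CPM in mutant libraries, a log2 fold change of 0.11 (SE 0.19, edgeR adjusted p = 0.704). Exons of Tmem163 overlap those of Mgat5 on the opposite strand in the GENCODE M21 annotation, and since no strand setting is given, reads there cannot be assigned. Reln, Ebf3, Trp73 and Lhx5 each overlap a noncoding or predicted gene on the opposite strand (Gm10475, Gm45278, Trp73os and Gm27199).

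**Figure D4:**
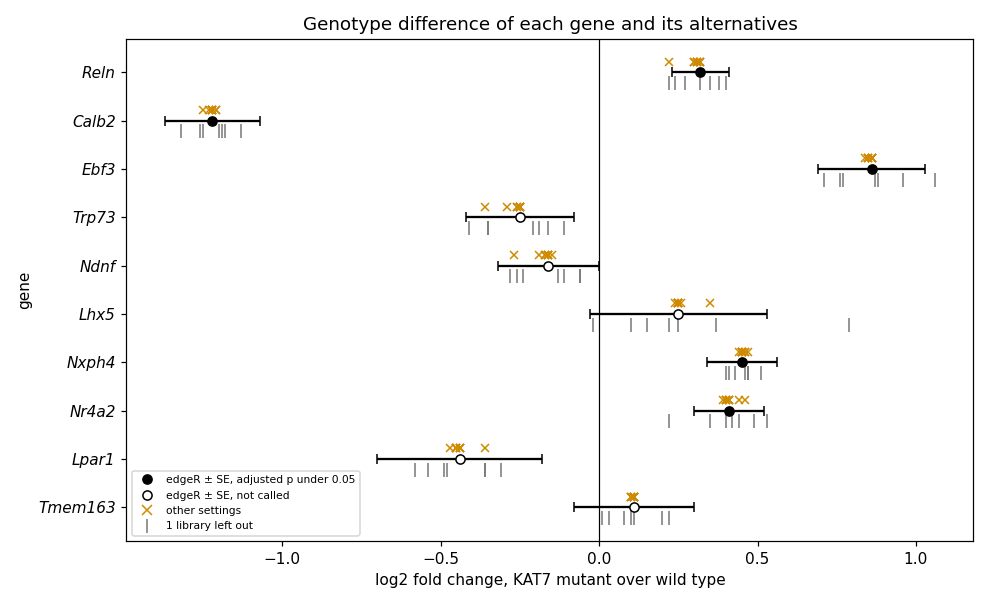
Log2 fold change of KAT7 mutant over wild type for each gene, with filled circles for genes called by edgeR, open circles for genes not called and bars for the SE; orange crosses show other normalizations, filters and tests, and grey ticks the value with 1 library left out. Calb2 stays between -1.32 and -1.13 and Ebf3 between 0.71 and 1.06, whereas Lhx5 runs from -0.02 to 0.79.

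Other genes of the same cells, from lists chosen with earlier results of these data known, did not move in 1 direction. Counts of calls in this and the other lists stand beside 13.1% higher and 15.8% lower over all tested genes. Of 7 further Cajal-Retzius genes 5 were tested, 2 rose and 0 fell (0 also at an unadjusted edgeR p under 0.05 and in DESeq2), at a median log2 fold change of 0.06. Only 1 rise was left without any 1 library other than mutant replicates 2 and 3, and 0 without mutant replicate 3. Ebf1, a paralogue of Ebf3, had 3, 6 and 5 counts in wild type libraries 1 to 3 and 35, 6, 11 and 12 counts in mutant libraries 1 to 4. Its log2 fold change was 1.79 ± 0.55 (SE, edgeR adjusted p = 0.0189), and the call was lost without wild type replicate 1 (1.57, adjusted p = 0.0678) and without wild type replicate 3 (1.82, 0.0518), with adjusted p of 0.000314 to 0.0678 over its alternatives. Without mutant replicate 1, 3 or 4 the gene failed the count filter and was not tested. Cacna2d2, a calcium channel subunit gene, rose by 0.31, or by 0.22 without wild type replicate 2, where the call was lost (edgeR adjusted p = 0.162). It was also lost without mutant replicate 3 (0.24, adjusted p = 0.077), and its adjusted p was 0.0052 to 0.162 over the alternatives. Nhlh2, a helix-loop-helix gene, had 0 counts in every library, which allows up to 3 counts in each, or 0.34 to 0.367 CPM.

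Of 11 further subplate genes only 4 passed the count filter, of which 0 rose (0 also at an unadjusted edgeR p under 0.05 and in DESeq2) and 2 fell, at a median of -0.49. Adra2a, an adrenergic receptor gene, went from 11.3 ± 3.09 (SD, n = 3) to 4.35 ± 0.994 CPM (SD, n = 4), a fall of 1.37 ± 0.20 (SE) on the log2 scale with an edgeR adjusted p of 2.27e-05. Gabra5, a subunit of GABA-A receptors, fell from 35 ± 6.27 to 18.3 ± 2.52 CPM, with a log2 value of -0.93 (SE 0.12, edgeR adjusted p = 6.75e-06). The mutant libraries of both genes lay below all wild type libraries. Ccn2, the marker of late subplate neurons (chosen after its value was seen), had a log2 fold change of -0.05 ± 0.16.

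Several members have close relatives. Of 17 paralogues 13 were tested, 3 rose and 2 fell, at a median of 0.03. Over all tested genes 13.1% rose and 15.8% fell, so these counts are given as a description only. The rises were 2 in DESeq2 and without any wild type library or mutant replicate 2, and 1 without mutant replicate 1, 3 or 4. In the neurexophilin family Nxph3 rose with Nxph4, from 12.5 ± 2.57 (SD, n = 3) to 19.9 ± 3.71 CPM (SD, n = 4), with a log2 fold change of 0.67 ± 0.15 (SE). Nxph2 fell from 9.86, 8.70 and 7.13 CPM in wild type libraries 1 to 3 to 2.10, 2.55, 2.72 and 2.93 CPM in mutant libraries 1 to 4. This was a log2 fold change of -1.73 (SE 0.18, edgeR adjusted p = 5.66e-07). Nxph1, chosen after its value was seen, stood at -0.01 ± 0.14. The per-length ratio of Nxph4 to Nxph2 was accordingly 1.98 to 3.15 in wild type and 9.30 to 13.1 in mutant libraries. That separation follows from the choice of a pair called in opposite directions and is given without a test.

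Among the Nr4a receptors, which neurons also induce on activity, Nr4a2 was called higher and Nr4a3 lower. Nr4a3 had 78.4, 80.6 and 75.8 CPM in wild type libraries 1 to 3 and 48, 47.1, 41.5 and 49.9 CPM in mutant libraries 1 to 4. It fell by 0.75 on the log2 scale (SE 0.07), with an edgeR adjusted p of 5.71e-08, and no alternative ended the call. Nr4a1, chosen after its value was seen, had a log2 fold change of -0.02 ± 0.25 and varied 10.2 to 25.9 CPM in wild type and 12.2 to 27.3 CPM in mutant libraries, with replicate 1 the highest of each genotype. Nr4a2 had the same order as Nr4a1 in wild type libraries, where replicate 3 was the lowest for both, but not in mutant libraries. Per length, Nr4a2 stood at 0.277 to 0.436 of Nr4a3 in wild type and at 0.712 to 1.03 of it in mutant libraries. Both genes were called, in opposite directions, so this separation follows from the choice of the pair and is given without a test. The Nr4a2 call was lost without wild type replicate 3, in DESeq2 and in the robust fit, as given above. Among Ebf genes, Ebf4 was called at 0.39 ± 0.14 (SE, edgeR adjusted p = 0.0467), a call lost without any 1 library other than wild type replicate 1 (0.22 to 0.40). It was lost as well with upper-quartile factors, with library size only and in DESeq2, and the adjusted p was 0.00254 to 0.288 over the alternatives.

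**Figure D5:**
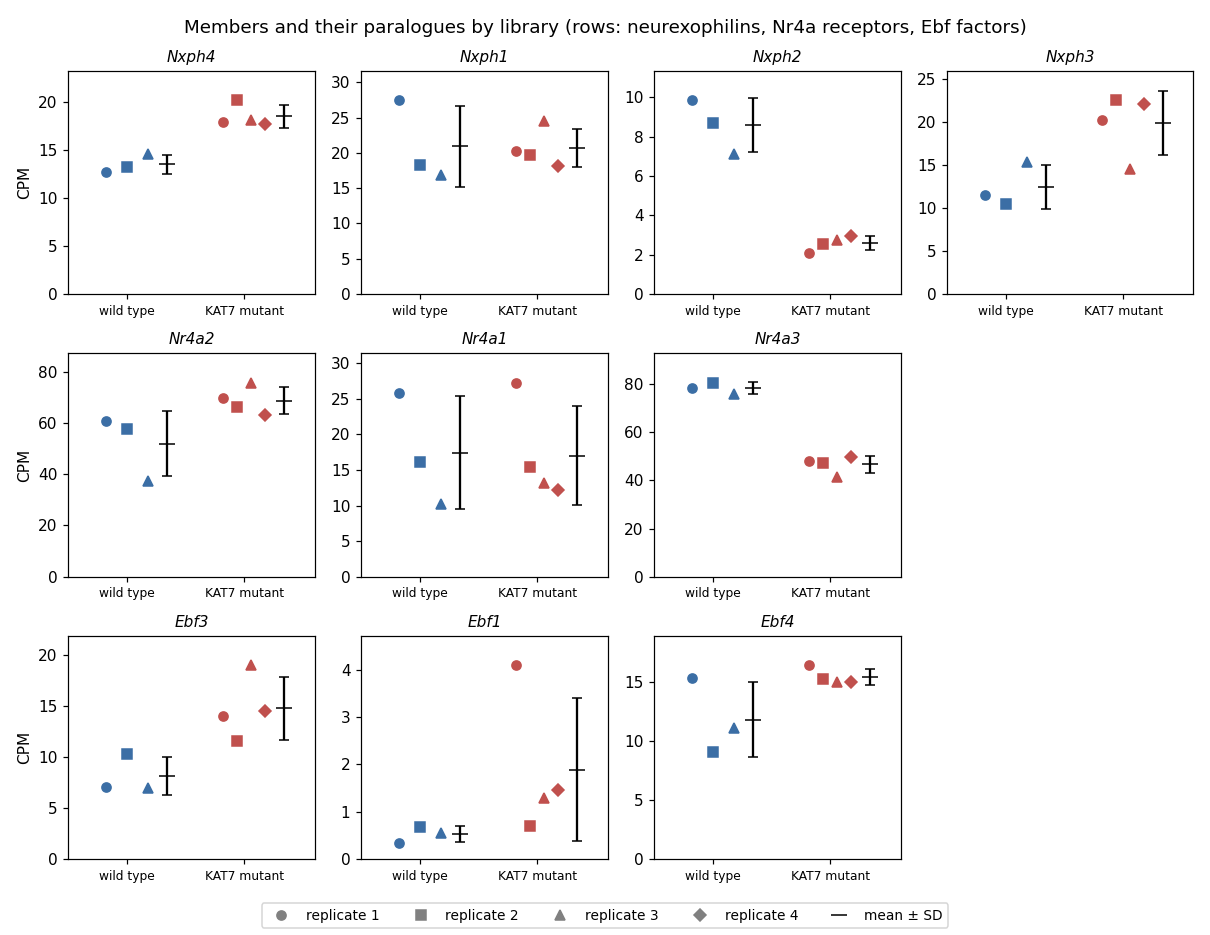
CPM in each library for neurexophilins (top row), Nr4a receptors (middle row) and Ebf factors (bottom row), wild type in blue and KAT7 mutant in red, with marker shapes for replicate numbers and mean ± SD (n = 3 and 4) beside the points; each vertical axis starts at 0. Nxph4 and Nxph2 separate the genotypes in opposite directions, as do Nr4a2 and Nr4a3, and the mean of Ebf1 in the mutant rests largely on replicate 1 with 4.09 CPM.

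On the receiving side of reelin, all 12 listed genes were tested, 3 rose and 0 fell (1 at an unadjusted edgeR p under 0.05, 0 in DESeq2), at a median of 0.05. Vldlr, which encodes a reelin receptor, had 122, 127 and 107 CPM in wild type libraries 1 to 3 and 163, 175, 180 and 175 CPM in mutant libraries 1 to 4. It rose 1.46-fold, a log2 fold change of 0.54 (SE 0.06, edgeR adjusted p = 8.51e-07). Lrp8, which encodes the other receptor, and Dab1, both chosen after their values were seen, had log2 fold changes of 0.04 ± 0.05 and 0.01 ± 0.05. Cdk5r1, the activator of the kinase Cdk5, rose by 0.23, and Rapgef1, an exchange factor for Rap1, by 0.17. Rapgef1 lost its call without wild type replicate 1 or 2 or mutant replicate 2 (0.14 to 0.16). Over its alternatives the adjusted p ran from 0.00619, in DESeq2, to 0.0731, in edgeR without wild type replicate 1. With 1 library left out the number of rises was 2 to 4, being 2 without wild type replicate 1 or 2 or mutant replicate 2, and 1 gene fell without wild type replicate 1 or mutant replicate 3.

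In the lysophosphatidic acid pathway, to which Lpar1 belongs, 5 of 7 further genes were tested, 0 rose (1 at an unadjusted edgeR p under 0.05, 0 in DESeq2) and 2 fell, at a median of -0.31. Enpp2, the gene of autotaxin, which makes lysophosphatidic acid, had 18, 31 and 29 counts in wild type and 11, 11, 6 and 8 counts in mutant libraries. Its log2 fold change was -1.48 ± 0.29 (SE), with an edgeR adjusted p of 0.000685. Plpp3, a phosphatase gene of that lipid, fell by 0.31, and the call was lost in DESeq2 (adjusted p = 0.0825) and without wild type replicate 2 (0.075), in a range of 0.0136 to 0.0825. The list had 1 fall in DESeq2 and without wild type replicate 2, and 1 rise without wild type replicate 3. Markers of other cells that make Lpar1 did not move together. Oligodendrocyte lineage markers rose in 4 and fell in 1 of 8, including Olig2 at 1.67 and Sox10 at 1.87 (not tested without mutant replicate 2, 3 or 4), with sums of 34.2 to 39.9 CPM in wild type and 38.3 to 56.7 CPM in mutant libraries. The rises were 5 without wild type replicate 1 or mutant replicate 1 and 3 without mutant replicate 2, 3 or 4. Of 10 meningeal fibroblast markers 4 were tested, and Pdgfrb, which pericytes share, fell by 0.73. Col1a1, Col3a1 and Cxcl12 were not called, at 0.26, 0.07 and 0.10, and DESeq2 called 2 falls, the other being Dcn, which failed the count filter of edgeR. Of 8 radial glia markers 7 were tested, 5 fell and 0 rose (0 also at an unadjusted edgeR p under 0.05 and in DESeq2). Pax6 stood at -1.48 and Hes5 at -1.31. The radial glia sums were 240 to 260 CPM in wild type and 177 to 216 CPM in mutant libraries. The falls were 4 in DESeq2 and without wild type replicate 1 or 2 or mutant replicate 1 or 2. The part of all these cells in the Lpar1 values was not tested.

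Genes of the cortical hem and the other regions that give rise to Cajal-Retzius cells were tested in 8 of 13 cases, of which 0 rose (0 also at an unadjusted edgeR p under 0.05 and in DESeq2) and 2 fell, at a median of -0.45. Wnt3a, Bmp4, Gdf7 and Dbx1 were close to 0 and not tested, with wild type means of 0.308, 0.154, 0.114 and 0.0792 CPM. Rspo1, also not tested, had means of 1.19 CPM in wild type and 0.326 CPM in the mutant. Lmx1a, not called, had 1.39 CPM in wild type. Rspo3, a secreted enhancer of Wnt signalling, had 75.4, 84.3 and 91.4 CPM in wild type libraries 1 to 3 and 41.9, 38.1, 31.9 and 37.5 CPM in mutant libraries 1 to 4. It fell by 1.16 on the log2 scale (SE 0.08), with an edgeR adjusted p of 1.95e-09. Wnt8b, a Wnt ligand gene of the hem, had 12, 21 and 16 counts and then 3, 8, 1 and 10 counts, a log2 fold change of -1.51 ± 0.44 (SE, edgeR adjusted p = 0.0124). Wnt8b lost its call without wild type replicate 2 (-1.30, adjusted p = 0.0794), in a range of 0.00114 to 0.0794. The list had 3 falls in DESeq2 and 3 at an unadjusted edgeR p under 0.05. It had 1 fall without wild type replicate 2 and 3 without wild type replicate 3 or mutant replicate 1. Zic1, chosen after its values were seen, shows how far libraries can differ in such genes, with 13.9 to 25.9 CPM in wild type and 35.2, 8.23, 6.97 and 9.90 CPM in mutant libraries 1 to 4. Zic1 was not called (-0.26 ± 0.37, SE), but without mutant replicate 1 it fell by 1.11 (edgeR adjusted p = 0.000184, in a range of 0.000184 to 0.969).

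For each called member the genes with the most similar pattern were found by the root mean square difference of log2 CPM, each gene centred on its mean over the 7 libraries. Nearest to Calb2 were Tnfaip8l1 and Rspo3, both at 0.10. Nearest to Ebf3 were Atp10d (0.11) and Trps1 (0.15), to Nxph4 Caprin2 and Gab2 (both 0.05), to Nr4a2 Srp54b (0.07) and Fam160a1 (0.09), and to Reln Zfp217 (0.04) and Haspin (0.08). Zfp217, which shared the high values of Reln in mutant replicates 3 and 4, was not called itself, with a log2 fold change of 0.29 ± 0.13 and an edgeR adjusted p of 0.107. Trps1, a zinc finger gene, went from 15.3 ± 2.14 (SD, n = 3) to 27.1 ± 3.07 CPM (SD, n = 4). Genes found in this way share the pattern of the member by selection, so their direction is no separate result.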

How the data were processed

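PolyA RNA-seq of cortical neurons from 3 wild type and 4 KAT7 mutant embryos was used. The authors deposited whole-number read counts per Entrez gene, made with featureCounts on mm9 per the submitters' processing notes, and a gene length in bases beside them. For the aligner, the annotation and the strand setting, nothing is given in the sources used here. Symbols came from a RefSeq table of GRCm38.p6 (24176 of 26286 identifiers).

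The filterByExpr function of edgeR (minimum count 10) left 13681 genes. TMM factors were 0.9894 to 1.01. The two-sided quasi-likelihood test of edgeR 4.0.16 in R 4.3.3 had genotype as its only term. SE is the log2 fold change divided by the root of F. CPM use TMM-adjusted library sizes, and RPKM divide them by deposited length. The fit was tested on simulated counts. Within a genotype, library pairs differed beyond counting noise (chi-square per gene 2.03 to 3.62).

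The members and lists (6 of related genes, 8 of cell type markers) were chosen with earlier results of these data known. The naming rule took Kat7, all members, up to 3 called genes per direction of each related list, the 2 largest called changes and the most abundant gene of each cell type list, and the 2 nearest genes to each called member. Not all are described. The fit was repeated with RLE factors, with upper-quartile factors, with library size alone, without the filter, with a filter at CPM 1 in at least 3 libraries, in DESeq2 1.42.0, in limma-voom (limma 3.58.1), with robust dispersions, with the replicate number as a block, with each library left out, and at an adjusted p under 0.01.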

Additional observations from a re-analysis of the deposited data

Results flagged for a closer look

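The mutant libraries of 64 genes were screened and 5 genes are given here; chance alone singles out about 1 in 20 groups of 4 libraries by the measure used, the gap of the highest or lowest library to its nearest neighbour as a share of the whole range. In Nxph4, KAT7 mutant replicate 2 (20.2 CPM) stood above the other mutant libraries (17.7 to 18.1 CPM) by 0.858 of the range. In Kat7, mutant replicate 4 (1.22 CPM from 10 counts) stood above the others by 0.87 of the range, on counts of 3 to 10. In Ebf4, mutant replicate 1 (16.4 CPM) stood above the others (15 to 15.2 CPM) by 0.864 of a narrow range. In Lrp8, mutant replicate 4 stood above the others by 0.86 of the range. In Zic1, mutant replicate 1 (35.2 CPM) stood above the others (6.97 to 9.90 CPM) by 0.896 of the range.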

How the results depend on the processing

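Among the 10 genes, 161 of 170 alternative values kept the direction and the side of the threshold. The number that rose was 4, but 2 in DESeq2 and 2 in the robust edgeR fit, and 3 to 4 with 1 library left out; the number that fell was 1 throughout. Over all genes 1034 rose at an adjusted p under 0.01, and the counts were 1273 to 1776 higher and 1826 to 2212 lower with 1 library left out. Of 64 genes followed through the alternatives, the sign turned at least once for 10, all of them not called. Under the replicate block Kdr was -0.07, Nxph1 0.06 and Nr4a1 0.11; in limma-voom Nxph1 was 0.02 and Nr4a1 0.01; with library size only Sox5 was -0.01. With 1 library left out the ranges were -0.02 to 0.79 for Lhx5 (below 0 without wild type replicate 2), -0.10 to 0.02 for Mbp, -0.07 to 0.27 for Kdr, -0.28 to 0.16 for Ccn2, -0.15 to 0.23 for Nxph1, -0.35 to 0.37 for Nr4a1, -0.03 to 0.05 for Dab1, -1.11 to 0.10 for Zic1, -0.09 to 0.18 for Sox5 and -0.04 to 0.23 for Col3a1, so no direction is read for these genes. The cause was not tested. With the replicate number as a block, 4 members rose and 1 fell, and 1460 and 1943 of all genes. Replicate number 4 occurs only in the mutant, so mutant replicate 4 adds nothing to the genotype term of that fit. Same-numbered libraries did not deviate together (correlations of -0.0292 to 0.0181), so the numbers were not taken to pair animals. Lhx5, Lpar1 and Wnt8b rest on counts of 41 or fewer per library, which limits what can be seen in them.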
